A study of Mus musculus with 2 samples.

Results

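The regions described here are short stretches of H3K36me2 enrichment that lie far from coding genes in splenic regulatory T (Treg) cells. They were chosen from both deposited region lists by position and length alone: on chromosomes 1 to 19 or X, under 1000 bp from start to end, and at least 50 kb from the body of the nearest protein-coding gene in the RefSeq annotation of mm10. This gave 6175 of the 54527 wild-type regions and 3993 of the 39745 knockout regions, or 10168 of 94272 in all. No tag count entered the choice.

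The study profiled Treg cells from the spleen of C57BL/6 mice, with 1 wild-type library (wild type, WT) and 1 library from mice with an Nsd2 Treg conditional knock out. The Cre driver, the age and number of the animals and the antibody are not stated in the labels used here. With 1 library per genotype no difference between the genotypes has a replicate check, so no p-value is given. The 95% intervals cover counting error only, treat regions as independent and say nothing of the spread between animals.

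H3K36me2 is the dimethylated form of lysine 36 on histone H3. NSD1 and NSD2 are the enzymes that place most of it in mammalian cells, and the mark covers active gene bodies and wide stretches between genes. Sequence far from coding genes includes gene deserts that hold distal enhancers, long non-coding RNA (lncRNA) genes and repeats. Sequence of this kind next to Bcl11b, Gata3, Id2 or Myc is known to hold long-range enhancers used by lymphocytes.

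As pooled lists, the gene bodies of the T cell and Treg markers were covered by regions of the mark over more of their length than those of other lineages, but single markers crossed that order. All 6 pan-T markers held a region in each library, over 45.5% (wild type) and 45.7% (knockout) of their summed bodies. Bcl11b was covered over 61.8% and 58.9%, and Cd3e over 2.17% and 7.49%. Of 4 Treg markers 3 held a region in each, and Foxp3, the lineage factor of Treg cells, was covered over 17.6% and 29.9%, while Ctla4 was at 0 in both. The 4 B cell markers were covered over 2.08% and 1.30% in sum, and 2 of them held a region: Cd79a, a subunit of the B cell receptor, over 14.7% and 22.9%, more than Cd3e, and Pax5 over 2.05% and 0.957%. Ms4a1 was at 0 in both. The myeloid markers were covered over 3.41% and 2.58%, with Lyz2 and Cd14 at 0 and Csf1r and Itgam covered in both. The CD8 and natural killer markers were covered over 4.86% in wild type and 0% in the knockout, and the erythroid markers over 3.44% and 0%. A list of H3K36me2 regions does not show whether Nsd2 was deleted.

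Of the short far regions, 26.4% of the wild-type and 26.0% of the knockout ones overlapped a non-coding gene, usually a lncRNA gene, and the rest lay in no annotated gene. Promoter windows of lncRNA genes, from 250 bases before to 50 after the start, overlapped a wild-type short far region in 62 cases and a knockout one in 43, of 3360 windows that were themselves at least 50 kb from a coding gene. Both libraries had such a region over 8 windows, of 7 genes. The windows covered to at least 150 bases in both libraries are printed here, because they are the start sites at which the 2 lists agree, together with that of Zmiz1os1, which only the wild-type list covered. They come from RefSeq on GRCm38.p6 and are written 5′ to 3′ on the strand of the gene: Gm34150 at chr15:36374102-36374401 on the plus strand, Gm39036 at chr7:73602503-73602802 on the plus strand, Gm41509 at chr16:95797846-95798145 on the plus strand, Gm52737 at chr4:53327473-53327772 on the minus strand, Gm32796 at chr16:29977502-29977801 on the plus strand and Zmiz1os1 at chr14:25381865-25382164 on the minus strand. Capitals mark matches on either strand to any of 4 short motifs. These are TGTGGT, the core bound by RUNX factors, and AGATAA, a motif of the zinc finger family of Gata3. The others are CTTTGA, the core bound by Lef1 and its relatives, and CAGGAA, a motif of the family of Ets1. The windows of Gm41509 and Gm32796 hold none of them, and no match in the others overlaps another.
Gm34150: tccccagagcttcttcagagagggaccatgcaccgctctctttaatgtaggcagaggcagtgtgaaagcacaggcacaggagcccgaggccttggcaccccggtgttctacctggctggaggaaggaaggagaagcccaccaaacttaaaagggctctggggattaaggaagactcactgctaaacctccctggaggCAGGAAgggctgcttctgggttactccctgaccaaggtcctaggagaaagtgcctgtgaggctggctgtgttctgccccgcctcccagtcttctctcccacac
Gm39036: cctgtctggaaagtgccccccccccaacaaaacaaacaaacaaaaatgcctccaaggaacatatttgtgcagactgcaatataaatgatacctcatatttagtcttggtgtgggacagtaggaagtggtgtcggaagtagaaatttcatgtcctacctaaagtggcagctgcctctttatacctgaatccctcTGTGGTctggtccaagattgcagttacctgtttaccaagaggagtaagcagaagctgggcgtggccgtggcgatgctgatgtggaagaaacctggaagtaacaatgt
Gm41509: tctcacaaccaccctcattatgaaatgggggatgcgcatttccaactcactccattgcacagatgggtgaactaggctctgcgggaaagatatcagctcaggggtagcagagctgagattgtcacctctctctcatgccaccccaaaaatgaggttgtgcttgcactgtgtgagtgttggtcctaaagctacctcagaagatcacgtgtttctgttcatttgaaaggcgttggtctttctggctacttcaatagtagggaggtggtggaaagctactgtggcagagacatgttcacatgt
Gm52737: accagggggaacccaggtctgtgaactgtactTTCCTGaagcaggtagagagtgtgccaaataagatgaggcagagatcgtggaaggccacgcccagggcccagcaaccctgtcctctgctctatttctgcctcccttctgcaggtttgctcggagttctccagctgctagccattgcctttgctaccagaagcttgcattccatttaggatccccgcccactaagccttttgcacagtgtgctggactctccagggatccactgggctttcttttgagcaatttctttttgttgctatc
Gm32796: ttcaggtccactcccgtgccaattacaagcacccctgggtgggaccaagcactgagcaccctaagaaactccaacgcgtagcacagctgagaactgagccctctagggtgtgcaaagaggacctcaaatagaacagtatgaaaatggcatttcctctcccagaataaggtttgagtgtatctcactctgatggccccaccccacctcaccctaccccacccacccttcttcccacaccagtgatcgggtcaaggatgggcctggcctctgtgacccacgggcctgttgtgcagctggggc
Zmiz1os1: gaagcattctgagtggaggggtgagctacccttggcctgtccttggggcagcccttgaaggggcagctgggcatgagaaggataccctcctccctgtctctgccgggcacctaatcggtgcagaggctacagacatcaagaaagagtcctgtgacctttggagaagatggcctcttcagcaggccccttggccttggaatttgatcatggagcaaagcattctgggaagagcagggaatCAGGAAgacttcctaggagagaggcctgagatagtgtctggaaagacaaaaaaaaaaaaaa

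At Gm34150 the wild-type region held 11.4 normalised tags (tags per 10000000 of the library) and the knockout region 17.6. At Gm39036, which lies 60.8 kb from Chd2, a chromatin remodeller gene, they held 11.9 and 12.8 tags. Gm41509, 76.8 kb from the gene of the transcription factor Ets2, had 11.9 and 9.80 tags. Gm32796, 87.6 kb from Hes1, a target gene of Notch signalling, had 7.29 and 10.5 tags, and Gm52737 had 6.70 and 7.44. Neither library was the higher one throughout: 4 of these 5 start sites had more tags in the knockout and 1 had more in wild type. The regions differed in width. They were 797 (wild type) and 997 bp (knockout) at Gm34150, 826 and 884 bp at Gm39036 and 814 and 636 bp at Gm41509. At these sites the wider region had more tags. At Gm32796 and Gm52737 both were 500 bp. The window of Zmiz1os1 lay under a wild-type region of 7.29 tags, 75.7 kb from Zmiz1.

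The motif shares rest on few windows and were not tested. TGTGGT was found in 20.1% of all 11574 lncRNA windows and of the 3360 far from coding genes, in 25.8% of the 62 under wild-type regions and in 18.6% of the 43 under knockout regions. AGATAA was in 14.0% of all windows, 18.04% of the far ones, 9.68% under wild-type regions (6 windows) and 18.6% under those of the knockout (8 windows). For CTTTGA the shares in that order were 18.9%, 21.6%, 19.4% (12 windows) and 11.6% (5 windows), and for CAGGAA 33.5%, 34.7%, 33.9% and 41.9%. A match describes these letters only and shows no binding.

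Few microRNA genes lay in the short far regions, although RefSeq's table held 153 hairpins at least 50 kb from coding genes. The mature sequences under a region are printed with the seed (bases 2 to 8) in capitals, because these are the microRNAs under a region whose sequence the table holds. They share no seed with each other. The gene Mir466f-4 also lay under a wild-type region.
mmu-miR-101c: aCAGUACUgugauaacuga
mmu-miR-466j: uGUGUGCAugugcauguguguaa
mmu-miR-539-5p: gGAGAAAUuauccuuggugugu
mmu-miR-7094-3p: uACUCUGCuguucucuccaca
mmu-miR-7094-1-5p: uCUGAAGAggauacagggucuga
The miR-101c gene, at chr9:3038680-3038698 on the minus strand, lay under a region in both libraries, of 7.58 tags (wild type) and 8.45 tags (knockout). miR-466j, at chr10:60960802-60960824 on the plus strand, lay under a wild-type region of 10.5 tags, and both arms of Mir7094-1, inside the immunoglobulin heavy chain locus at chr12:114469408-114469466 on the minus strand, under a wild-type region of 12.2 tags. miR-539-5p, at chr12:109728136-109728157 on the plus strand, lay under a knockout region of 7.78 tags, 123.5 kb from Rtl1, a gene of the imprinted cluster on that chromosome.

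The knockout library had fewer short far regions than the wild-type library. The 3993 knockout regions were 64.7% of the 6175 wild-type regions (62.1 to 67.3, exact conditional binomial interval). Part of this gap moves with the calling threshold, which the authors' caller set for each library: 13 tags among 17158154 in wild type and 12 among 14789700 in the knockout, or 7.58 and 8.11 tags per 10000000. With regions of at least 8.11 tags per 10000000 in both, 3344 wild-type and 3046 knockout regions remained, a ratio of 91.1% (86.7 to 95.7). Above this cut the ratio varied with the tag count. It was 105.6% from 8.11 to 10 tags. From 10 to 12 tags it was 70.3% (63.3 to 78.01), and from 12 to 15 tags 73.5% (64.3 to 83.8). From 15 to 20 tags it was 103.6%, with 192 wild-type and 199 knockout regions, and 21 regions in each library had 20 or more. The ratio of 91.1% thus holds for this cut alone. A common cut at 10 tags would drop the class at 105.6% and so give a lower ratio, which was not computed.

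The 2 settings parted according to length. Regions of 500 bp or less, the width of 1 peak of the caller, had a ratio of 68.0% (64.7 to 71.4) as deposited and of 152% at the common threshold. Regions over 500 and under 750 bp, which join more than 1 peak, had 58.6% and 59.2%, and those of 750 bp or more had 58.9% under both settings. The common threshold could hardly move the joined classes, since 1340 of the 1354 wild-type regions over 500 and under 750 bp and all 847 of the longer ones lay above it, and no knockout region of either class was lost. In the 500 bp class it kept 1157 of 3974 wild-type and 1754 of 2701 knockout regions, and the direction turned.

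Both lists consisted mainly of weak and narrow regions. In wild type 64.3% were exactly 500 bp long and in the knockout 67.6%. The median tag count was 8.16 per 10000000 in wild type and 8.45 in the knockout, close to the thresholds, and 21 regions in each library reached 20 tags. Short regions near coding genes (under 50 kb) had like medians, of 8.16 and 8.79, and so did those inside gene bodies, with 8.16 and 8.79.

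The limits of the rule did not mark a step in the signal. The wild-type region just inside the distance limit, 50020 bp from Tmem30b, held 7.58 tags, and the one just outside it, 49989 bp from Gbp6, held 7.29. In the knockout these were 9.80 tags at 50005 bp from Zdhhc17 and 8.11 tags at 49996 bp from Cstad. At the length limit, far regions of 950 to under 1000 bp (up to 50 bp inside it) had median tag counts of 16.1 in the wild-type list and 17.4 in that of the knockout. Those up to 50 bp outside it had 17.2 and 17.9.

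Short regions were sparser far from coding genes than near or inside them, and the knockout ratio was lowest there. Sequence at least 50 kb from coding genes made up 914 Mb, or 35.6% of the span analysed. It held 6.75 short regions per Mb in wild type (6.59 to 6.92, exact Poisson interval) and 4.37 in the knockout (4.23 to 4.50). Sequence under 50 kb from a gene held 18.2 and 13.3 per Mb, and gene bodies held 27.9 and 20.8 per Mb.

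Expressed as a ratio, knockout over wild type was 64.7% far from genes, 73.0% near them (70.9 to 75.1) and 74.3% inside them (73.0 to 75.6). The far ratio was 0.886 times the near ratio (0.844 to 0.931) and 0.870 times the inside ratio (0.833 to 0.909). At the common threshold the 3 ratios were 91.1%, 103% and 103%, and the far ratio was 0.881 times the near one (0.829 to 0.935) and 0.880 times the inside one (0.834 to 0.929). The knockout ratio was thus lower far from genes than near or inside them by about the same factor under both thresholds. Whether a second pair of libraries would show it cannot be told from 1 library per genotype.

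**Figure D1:**
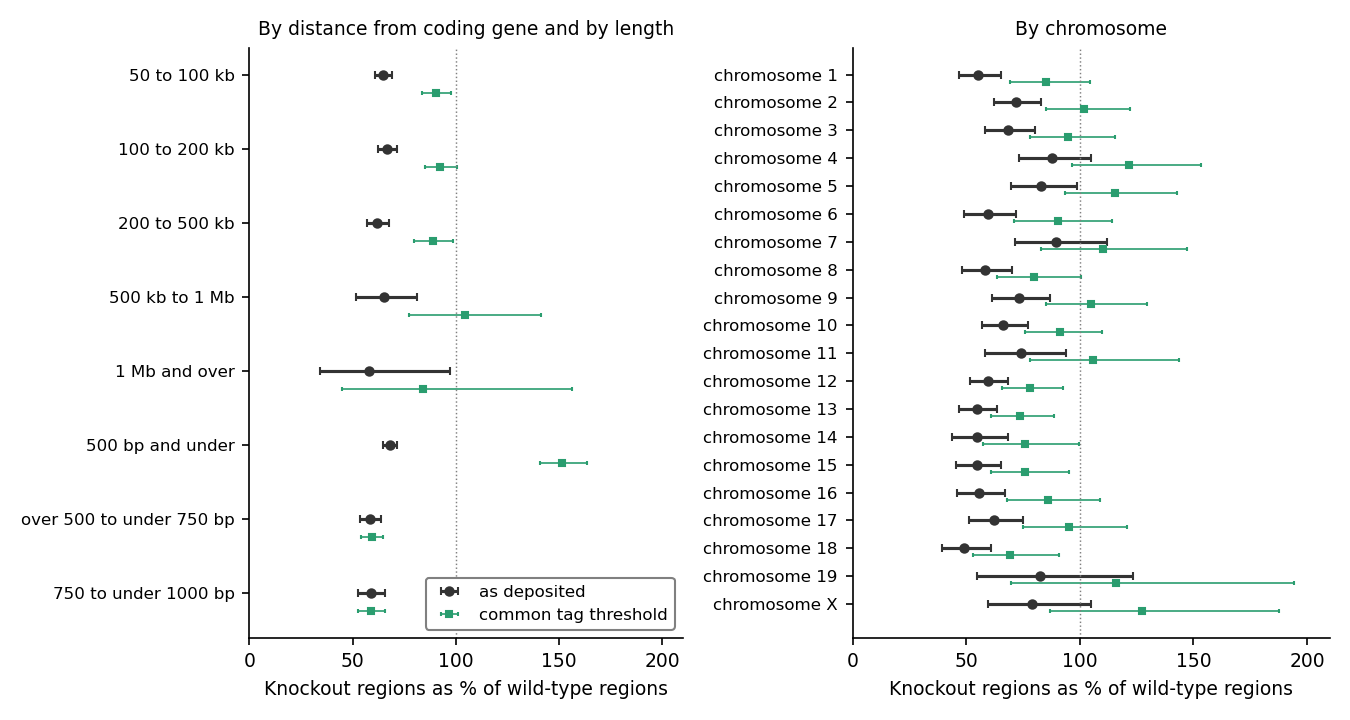
Number of knockout short far regions as a percentage of wild-type ones (x axis), by distance and length on the left and by chromosome on the right, with exact conditional binomial 95% intervals. Black circles use the lists as deposited and green squares use regions of at least 8.11 tags per 10000000 in both libraries, and the dotted line is at 100%. The distance classes sit close together under each setting, whereas the class of 500 bp and under moves from 68.0% to 152%.

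Distance itself made little difference to the ratio beyond 50 kb. The ratio was 64.7% at 50 to 100 kb, 66.7% at 100 to 200 kb, 61.9% at 200 to 500 kb, 65.0% at 500 kb to 1 Mb and 58.1% at 1 Mb and over (34.0 to 97.4), and the intervals overlapped. The median distance was 119.7 kb in wild type and 120.2 kb in the knockout. The regions farthest from any coding gene lay 1680 kb from Slc10a2 in wild type and 1761 kb from G6pd2 in the knockout, with 6.70 and 8.45 tags.

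Chromosomes differed more than distances did. Chromosome 18 had the lowest ratio, 49.0% (39.2 to 61.04), followed by chromosome 15 with 54.6%, 13 with 54.8% and 14 with 54.9%. The highest ratios were 89.5% on chromosome 7 (71.6 to 111.9), 87.8% on chromosome 4 and 83.04% on chromosome 5. The X chromosome had the lowest density, with 1.52 (wild type) and 1.21 (knockout) short far regions per Mb. In wild type the highest was chromosome 13, with 10.9 per Mb, against 5.95 there in the knockout, and in the knockout the highest was chromosome 9, with 6.81 per Mb.

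The positions of short far regions matched between the libraries less often than those of regions in general. Of wild-type short far regions, 1182 (19.1%, 18.2 to 20.1, exact Clopper-Pearson interval) had at least 1 bp in a knockout region, against 29.8% of all wild-type regions and 22.8% of all short ones. Of knockout short far regions, 1282 (32.1%, 30.7 to 33.6) had a base in a wild-type region, against 41.0% of all knockout regions and 33.7% of all short ones, so that in the knockout the share lay near that of short regions in general. Far regions of 1000 bp or more shared a base in 68.0% of 870 wild-type and 85.8% of 564 knockout cases. Sharing of the short far regions was lower at greater distance. In wild type it was 20.4% (18.8 to 22.0) at 50 to 100 kb and 11.3% (7.32 to 16.5) at 500 kb to 1 Mb. In the knockout these shares were 33.8% (31.4 to 36.1) and 18.9% (12.6 to 26.7).

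Sharing rose with signal. It was 11.0% for wild-type regions under 8.11 tags and 95.2% for the 21 with 20 tags or more (76.2 to 99.9), and in the knockout it rose from 21.3% to 85.7%. Within 10 kb of a short far region, 51.5% of wild-type and 67.3% of knockout ones had some region of the other library. Thus many regions without a base in common lay within 10 kb of a region of the other library. This share was not computed for other regions, so whether it is high was not tested. In the 966 pairs of overlapping short far regions the tag counts were alike, with medians of 9.62 (wild type) and 9.80 (knockout), 447 pairs higher in wild type and 511 higher in the knockout.

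**Figure D2:**
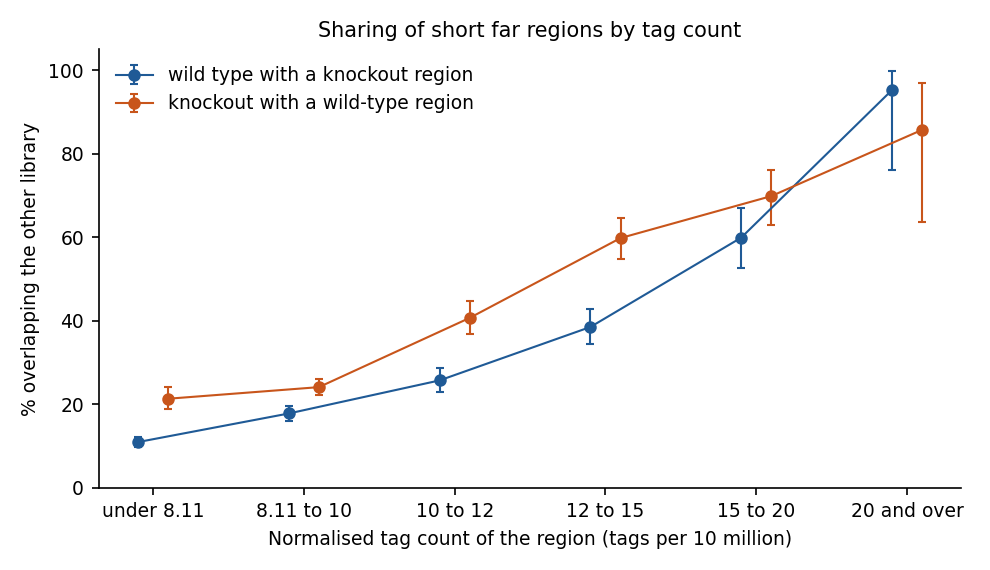
Share of short far regions with at least 1 bp in any region of the other library (y axis, %) by the normalised tag count of the region (x axis, tags per 10000000), with exact Clopper-Pearson 95% intervals. Blue is wild type and orange is knockout, and both rise from under 25% in the weakest class to over 80% in the strongest.

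The strongest regions lay at the same places in both lists. The one with most tags, at chr2:98664873-98665373 and 1033 kb from Lrrc4c, held 109.6 tags in wild type and 138.6 in the knockout. A region 281.6 kb from Pex2 on chromosome 3 held 52.5 and 75.7, one 137.2 kb from Rab10 on chromosome 12 held 37.9 and 44.6, and one 60.7 kb from Axin2 on chromosome 11 held 30.0 and 34.8. All 4 were higher in the knockout and all 4 were over 3 times the median of their list. The lists were called with no control in the command, and whether these tags come from the mark was not tested.

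Among the strongest wild-type regions was also one at chr10:118594470-118595379, 148.6 kb from Ifng, the gene of interferon gamma, with 28.0 tags, of which 881 bp lay in knockout regions. In the knockout, a region at chr13:52012533-52013465, 164.1 kb from Gadd45g, held 25 tags and shared 822 bp with the wild-type list.

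Short far regions gathered beside a limited set of genes. Each was assigned to its nearest coding gene, and each gene to the sequence at least 50 kb from any coding gene that lies closer to it than to any other. Of 4487 genes with such sequence, 1969 had a short far region in either library, 1608 of them a wild-type and 1385 a knockout one. The 50 genes with most regions held 23.0% of those of wild type and 20.2% of those of the knockout in 2.89% of the sequence. At the other end, 198 of the 512 genes with at least 500 kb of such sequence had none in either library, among them Pcdh17, Cdh8 and Ncam2, which encode neuronal adhesion molecules and have 3169, 3075 and 2502 kb.

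Among the genes with most short far regions were regulators of growth and of lymphocyte identity. Myc, which drives cell growth and proliferation, had 73 wild-type and 37 knockout regions over 1325 kb. Id2, an inhibitor of E proteins, had 54 and 29, and Bcl11b, a zinc finger factor needed for T cell commitment, had 52 and 27. Gm52008, a predicted coding gene at the other end of the Bcl11b desert, had 51 and 22. Counting the whole sequence between Gm52008 and Bcl11b gave 85 and 47 regions in 698 kb.

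Several transcriptional cofactors followed. Zmiz1, a coactivator of Notch1, had 49 and 27, Tle3, a corepressor of the Groucho family, 47 and 28, and Tbl1xr1, a subunit of the NCoR corepressor complex, 49 and 19. Mn1, a transcriptional coregulator, had 38 and 27, and Gadd45g, a stress-induced regulator of MAP kinase signalling, had 34 and 24. All of these genes had more regions in wild type, also at the common threshold, but by less there. The difference fell from 36 to 11 regions at Myc, from 25 to 8 at Id2 and from 25 to 7 at Bcl11b. At Zmiz1 it fell from 22 to 4 and at Tle3 from 19 to 3. When knockout counts were divided by the ratio of the 2 totals, the differences at Mn1 and Gadd45g (wild type minus knockout) turned, to -3.75 and -3.11 regions, and the others kept their direction.

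A gene was counted as higher in 1 library when that library had at least 5 regions more and at least 2 times as many. By this rule of size, 112 of the 1969 genes (5.69%) had more in wild type and 11 (0.559%) had more in the knockout. Of the 100 genes with 20 or more regions over both libraries, a group formed after the values were seen, 37 were higher in wild type (37.0%) and 0 in the knockout. Dividing knockout counts by the ratio of totals gave 54 (2.74%) and 40 (2.03%), and the common threshold gave 42 (2.13%) and 16 (0.813%). Myc, Id2, Bcl11b, Zmiz1, Tle3, Mn1 and Gadd45g met the rule under none of these settings.

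**Figure D3:**
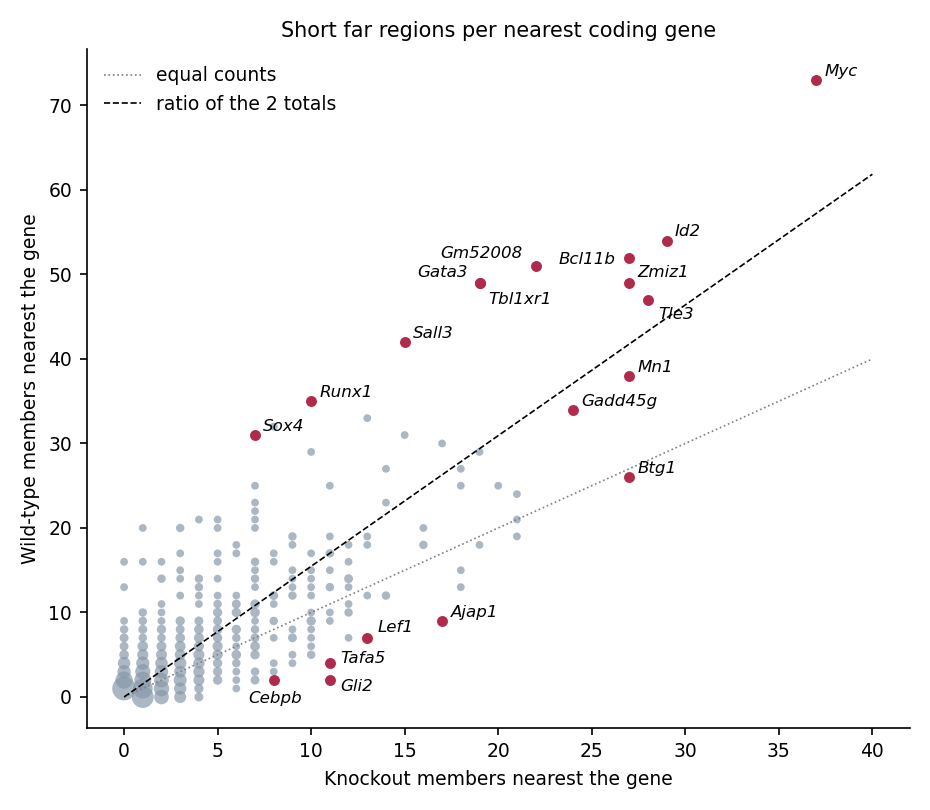
Wild-type short far regions (y axis) against knockout ones (x axis) for each nearest coding gene, with larger grey points for more genes at the same pair of counts and named genes in red. The dotted line marks equal counts and the dashed line the ratio of the 2 totals. Most genes with many regions lie above the dotted line, Gata3, Sall3, Runx1 and Sox4 also lie above the dashed one, and Btg1 lies near equal counts.

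The transcription factors of the T lineage had dense short far regions, with the highest density in both libraries among the 5 lists with 10 or more genes that have such sequence. Of 28 such genes, 18 had sequence far from coding genes and 17 had a region there. Together they had 356 regions in wild type, or 58.7 per Mb (52.8 to 65.1), and 169 in the knockout, or 27.9 per Mb (23.8 to 32.4). The corresponding values over all genes were 6.75 and 4.37 per Mb.

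The ratio beside these factors was 47.5% (39.3 to 57.2), against 64.7% over all genes. More regions were found in wild type at 14 of the 17 genes and in the knockout at 3. The median difference was 8 regions more in wild type, against 1 over all genes with a region. After scaling by the totals 12 of the 17 had more in wild type, and at the common threshold 13 did. By the rule of size 6 of the 17 had more in wild type and 0 had more in the knockout. Over all genes 5.69% had more in wild type. Many genes of the list have many regions, and of the 10 with 20 or more 4 were higher in wild type, a share near the 37.0% of all such genes. Relative to genes in no list the ratio was 0.724 (0.600 to 0.874), and 0.751 (0.603 to 0.936) at the common threshold. Genes in no list were not matched for density. Among all genes with at least 100 kb of far sequence, the ratio was 60.2% from 20 to 50 regions per Mb over both libraries. It was 55.1% (50.1 to 60.7) from 50 to 100 and 63.8% at 100 and over. These classes held 3, 4 and 5 genes of the T lineage list, and the class from 5 to 20 held 1.

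Gata3, which directs the Th2 fate and is also expressed in Treg cells, had 49 wild-type and 19 knockout regions, the farthest of the wild-type ones 1047 kb away. Runx1, a partner of FOXP3, had 35 and 10. Sox4, an HMG-box factor, had 31 and 7, of which 30 and 7 lay toward lower coordinates. Tox, an HMG-box factor of thymic selection and T cell exhaustion, had 25 and 7, Foxp1, a factor of T cell quiescence, 8 and 1, and Zeb1, a zinc finger repressor, 7 and 0. These 6 are the genes of the list that were higher in wild type by the rule of size. After scaling by the totals Gata3 no longer met it, and at the common threshold 2 of the 6 did, Sox4 and Tox, while Gata3 was at 25 and 16 and Runx1 at 19 and 10.

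Beside Satb1, a chromatin organiser, there were 30 and 17 regions, beside Foxo1, a factor of T cell homeostasis and homing, 27 and 18, and beside Ets1 19 and 11. After scaling by the totals Foxo1 was one of those with more in the knockout. Lef1, an effector of Wnt signalling expressed in naive T cells, went the other way, with 7 wild-type and 13 knockout regions. The Lef1 sequence also held 5 longer wild-type regions and 2 longer knockout regions. Rora and Myb were the other 2 with more in the knockout, with 0 and 2 regions and 0 and 1 regions.

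**Figure D4:**
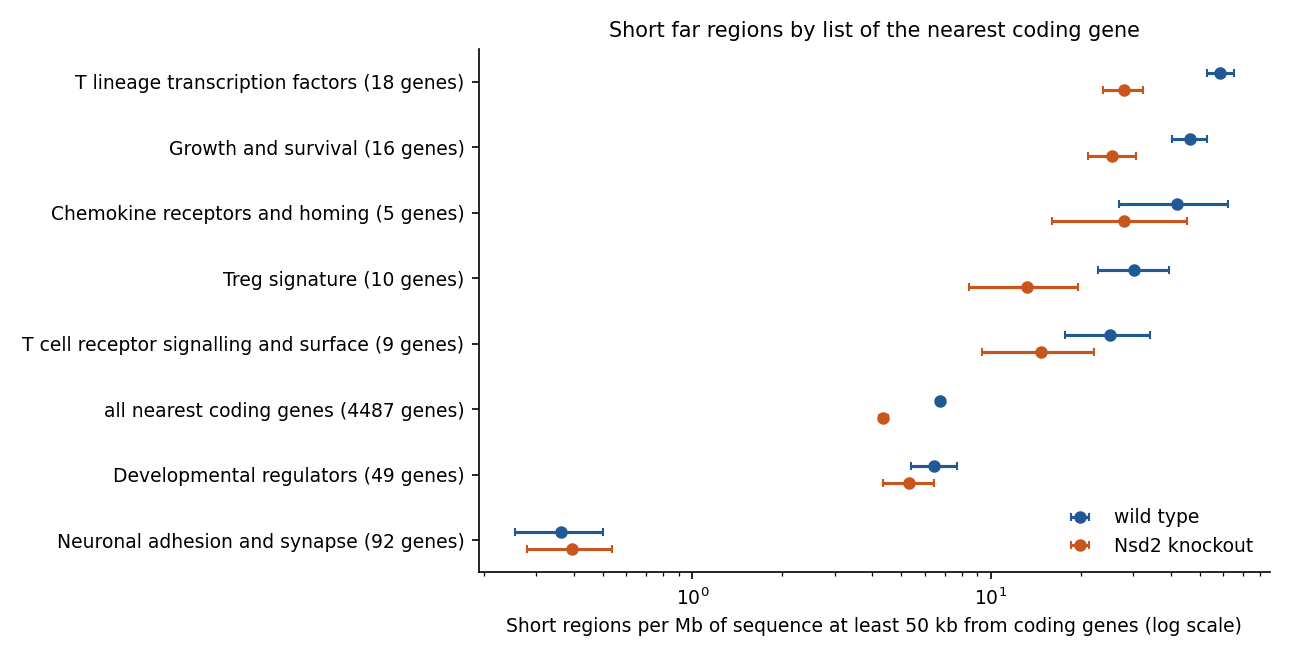
Short far regions per Mb of sequence at least 50 kb from coding genes (x axis, log scale) for lists of nearest coding genes, with exact Poisson 95% intervals. Blue is wild type and orange is the Nsd2 knockout, and the number of genes with such sequence is in brackets. T lineage factors lie at 58.7 and 27.9 per Mb and neuronal adhesion genes at 0.363 and 0.393 per Mb.

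Genes of Treg function had the same direction in smaller numbers. Of 30 Treg signature genes 10 had sequence far from coding genes, and 5 of them had 55 wild-type and 24 knockout regions, a ratio of 43.6% (25.8 to 71.7). Relative to genes in no list that ratio was 0.666 (0.411 to 1.077), an interval that holds equality. All 5 genes had more in wild type, 4 did after scaling by the totals and 3 at the common threshold. Nrp1, a surface receptor of thymus-derived Treg cells, had 23 and 7, and Maf, a transcription factor of effector Treg cells, had 18 and 9, and both met the rule of size. Nrp1 also met it under both other settings, whereas Maf met it under neither, with 7 and 6 regions at the common threshold. Over all genes 5.69% were higher in wild type by that rule, and 37.0% of those with 20 or more regions, as both of these have. Icos, a costimulatory receptor, had 5 and 3, Ikzf2, which encodes Helios, 5 and 2, and Prdm1, which encodes Blimp-1, 4 and 3. Foxp3 and Il2ra had no sequence far enough from coding genes to be counted.

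For T cell receptor signalling and surface genes the counts were 39 and 23 at 8 genes, a ratio of 59.0% (33.6 to 101.2). Ptprc, the gene of the phosphatase CD45, had 8 wild-type regions and 0 in the knockout, all 8 toward lower coordinates. Prkcq, which encodes protein kinase C theta, had 8 and 4. Rasgrp1, an activator of Ras below the T cell receptor, had 7 and 9. Among 17 chemokine receptor and homing genes, Cxcr4, the receptor of CXCL12, had 18 and 13 regions and Itga4, the alpha 4 integrin, 6 and 3. The difference (wild type minus knockout) at Cxcr4 turned to -2.1 after scaling by the totals, and that at Itga4 to -2 at the common threshold.

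Growth and survival genes had 46.5 wild-type and 25.5 knockout regions per Mb, also above the values over all genes. They numbered 213 and 117 at 14 genes, a ratio of 54.9% (43.5 to 69.1), with 11 genes higher in wild type in plain counts, 2 in the knockout and 1 equal, and with 7 and 7 after scaling by the totals. Besides Myc, the list owed much to Bcl2l11, the gene of the pro-apoptotic protein BIM, with 20 and 7, to Klf6, with 20 and 5, and to Bcl6, a repressor of follicular T cells, with 18 and 6. These 3 met the rule of size, of which Klf6 alone met it under both other settings and Bcl6 under neither. They are 3 of the 6 genes of the list with 20 or more regions, against 37.0% of all such genes. Relative to genes in no list the ratio of this list was 0.838 (0.666 to 1.054), an interval that holds equality. Jun, a subunit of AP-1, had 17 and 11, but 8 and 9 at the common threshold. Btg1, an antiproliferative gene of quiescent lymphocytes, had 26 and 27.

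Regions of both libraries were spread along the deserts beside these genes. Beside Myc, 55 of the 73 wild-type and 30 of the 37 knockout regions lay toward higher coordinates, where the lncRNA gene Pvt1 lies, and they reached 880 and 877 kb. Beside Id2, wild-type regions reached 567 kb from the gene and knockout regions 340.1 kb. A base in the knockout list was shared by 7 of the 73 wild-type regions beside Myc, 14 of 54 beside Id2 and 17 of 52 beside Bcl11b. Over all wild-type short far regions the share was 19.1%.

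**Figure D5:**
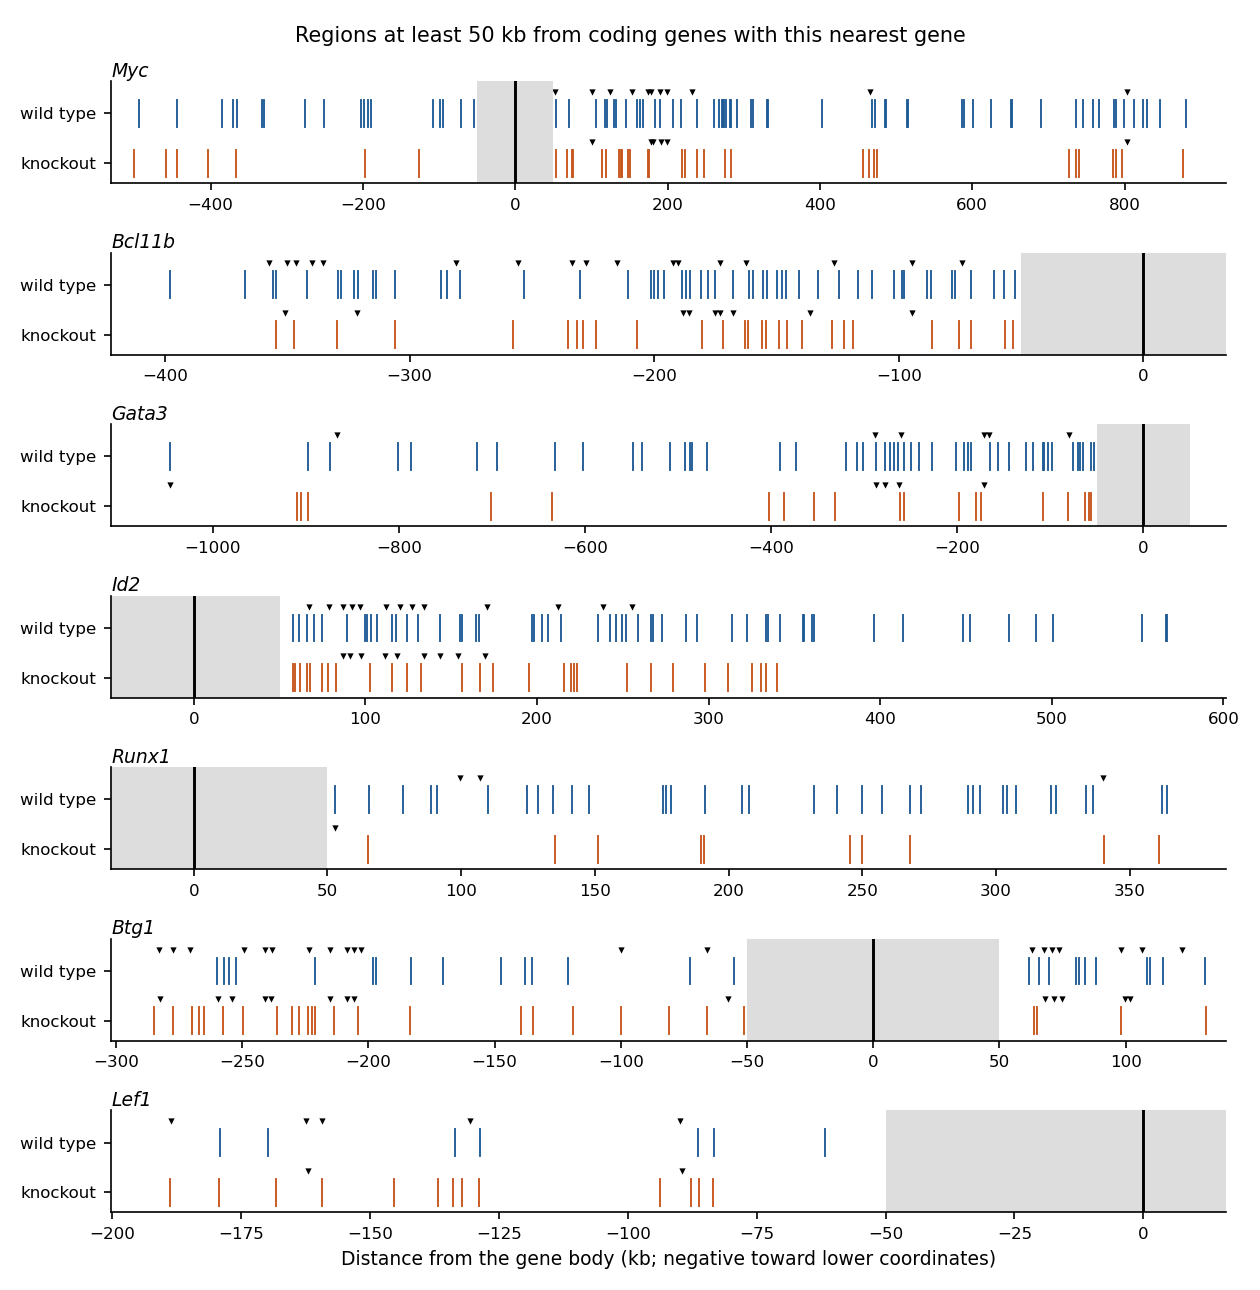
Positions of short far regions (bars, wild type above and knockout below) along the sequence nearest to 7 genes, in kb from the gene body on the x axis, negative toward lower coordinates. The black line stands for the gene body, grey for the 50 kb on either side, which the rule leaves out, and triangles mark regions of 1000 bp or more. Wild type has more bars at Myc, Bcl11b, Gata3, Id2 and Runx1 (35 against 10), the counts at Btg1 are 26 and 27, and Lef1 has more in the knockout.

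Of the 1969 genes with a short far region, 584 had them in wild type alone and 361 in the knockout alone. Tank, an adaptor of TRAF signalling, had 16 and 0 over 257 kb, and Sgk1, a kinase linked to salt sensing in T helper cells, had 13 and 0 over 193 kb. Prlr, the prolactin receptor, had 9, and Cd180, a relative of the Toll-like receptors, had 8. Of the wild-type regions beside Tank 2 overlapped a longer knockout region, and beside Sgk1 1 did. The other side of the Sgk1 desert, nearest to Aldh8a1, had 17 wild-type and 5 knockout regions. No gene had more than 4 short far regions in the knockout and 0 in wild type. Pik3r1, the regulatory subunit of PI3 kinase, chosen after its values were seen, had 32 and 8.

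The genes with the largest knockout excess were fewer and had lower counts. Gli2, an effector of Hedgehog signalling, had 2 wild-type and 11 knockout regions, Ajap1, which encodes a junction protein, 9 and 17, Tafa5, which encodes a secreted protein, 4 and 11, and Cebpb, a basic leucine zipper factor, 2 and 8. These 4, like Lef1, kept that direction under both other settings. Scaling by the totals raises every knockout count and so could not turn it. The common threshold kept 3046 of 3993 knockout but 3344 of 6175 wild-type regions, which also favours the knockout. At Cebpb the longer regions went the other way, with 10 wild-type and 6 knockout ones. Irf8, which is on the myeloid and dendritic list with Cebpb, had 0 and 1. The gene bodies of the 4 myeloid markers were covered over 3.41% (wild type) and 2.58% (knockout), with Lyz2 and Cd14 at 0 in both, and whether other cells take part in these counts was not tested.

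The B cell list was nearly empty, with 2 wild-type and 2 knockout regions, at Ebf1, Bank1 and Pax5. The list of CD8 and natural killer markers had 9 and 2, all beside Eomes, a T-box factor, while the gene bodies of its 4 marker genes were covered over 4.86% in wild type and 0% in the knockout. Their part in the Eomes count was not tested. Of the H3K36 enzymes and readers, 5 had sequence far from coding genes, and Kdm4c and Setmar had 1 knockout region each and 0 in wild type.

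Developmental and neuronal genes had counts closer to equal. Developmental regulators had 125 and 103 regions at 31 genes, a ratio of 82.4% (62.9 to 107.8), with 9 genes higher in wild type, 16 in the knockout and 6 equal, and with 24 in the knockout after scaling by the totals. That ratio was 1.26 times the one of genes in no list (0.965 to 1.64) and 1.30 times (0.931 to 1.81) at the common threshold, intervals that hold equality. The largest difference in the list was at Sall3, a zinc finger factor of development, with 42 and 15, which alone of the list met the rule of size, though not after scaling by the totals. Tbx3, a limb and breast regulator, had 9 and 10, and Sox5, a factor of cartilage and neurons, had 11 and 6, which became 3 and 4 at the common threshold. Neuronal adhesion and synapse genes, with 99.1 Mb of far sequence at 92 genes, had 36 and 39 regions, or 0.363 and 0.393 per Mb. Their ratio, 108%, was 1.65 times that of genes in no list (1.048 to 2.60), and 1.72 times (0.935 to 3.16) at the common threshold. It was close to the 106% (88.5 to 126.0) of all genes with under 5 regions per Mb, described next.

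Over all genes with at least 100 kb of far sequence, the ratio was highest where regions were sparsest. The genes were grouped, after the values were seen, by their short far regions per Mb over both libraries. The knockout ratio was 106% (88.5 to 126.0) under 5 regions per Mb, 78.4% (70.4 to 87.2) from 5 to 20, 60.2% (54.8 to 66.1) from 20 to 50, 55.1% (50.1 to 60.7) from 50 to 100 and 63.8% (58.0 to 70.2) at 100 and over. At the common threshold the 5 values were 188%, 121%, 83.9%, 77.4% and 87.9%. The groups were formed from the same counts, so the ratios are a description. In both settings the ratio was lowest at 50 to 100 regions per Mb, and the sparsest sequence had as many or more regions in the knockout.

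Short far regions also lay less close together in the knockout. Chained over gaps of at most 10 kb, wild-type regions formed 506 stretches of 3 or more, which held 34.8% of them (33.6 to 35.97), and knockout regions 231 stretches with 24.1% (22.8 to 25.5). With no other region of the same library within 10 kb were 40.6% of wild-type and 53.1% of knockout short far regions. For short regions near coding genes these shares were 33.2% and 38.6%, and for those inside genes 27.2% and 33.0%. The number of regions in a list itself moves such shares, and its part was not tested.

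The stretch with most regions lay at chr12:107699180-107857822, on the lower-coordinate side of Bcl11b, with 35 wild-type regions in 158.6 kb and 18 knockout regions in the same span. The next in wild type, at chr2:173382545-173466472, had 20, against 9 in the knockout, and the one beside Gadd45g had 14 against 5. In the knockout, 14 regions lay at chr2:128387214-128447925, where wild type had 7. That stretch begins inside Morrbid, a lncRNA gene that controls Bcl2l11. A stretch of 11 knockout regions at chr15:60099522-60141165 had 7 in wild type.

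LncRNA genes held a larger share of the short far regions than of the sequence. They made up 11.04% of sequence at least 50 kb from coding genes and held 24.2% of the wild-type regions (23.1 to 25.2) and 23.9% of the knockout ones (22.6 to 25.3). The ratio inside them, 64.0%, was close to that of all short far regions. Individual lncRNA genes differed: 2610307P16Rik, in the Sox4 desert, had 33 and 9, and Zmiz1os1 had 21 and 9, whereas Pvt1 beside Myc had 18 and 17, Lncpint 17 and 20 and Morrbid 18 and 14. Pvt1 thus had nearly equal counts, while the Myc desert as a whole had 73 and 37.

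The immunoglobulin heavy chain locus Igh, whose segments RefSeq does not class as protein-coding, held more short far regions than any lncRNA gene, with 70 wild-type and 35 knockout ones over chr12:113258768-116009954. The difference lay in the variable segments, with 55 and 20 regions over 2437 kb. The constant segments, over 153.5 kb, had 14 and 12 and also 9 and 5 longer regions. The light chain locus Igk had 1 and 2 short far regions, and the T cell receptor loci Tcra and Tcrb 1 and 0 and 1 and 1. Tcra and Tcrb held 10 and 7 wild-type regions of any length and place, so most of theirs fell outside the rule. Of the 4 B cell markers, Cd79a was covered over 14.7% (wild type) and 22.9% (knockout) of its body and Pax5 over 2.05% and 0.957%, while Ms4a1 had no region in either library, and the part of B cells in the Igh counts was not tested.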

How the data were processed

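H3K36me2 libraries of splenic Treg cells were compared, 1 per genotype. Tools named, without versions, in the submitters' processing notes are deepTools, HOMER, Picard, Bowtie2 and Trim Galore, with the mm10 build. Per the file headers, HOMER called regions in each library alone in histone style, with peaks of 500 bp, a Poisson threshold of 0.001 and no control in the command. The signal used is the deposited normalised tag count, scaled by the authors to 10000000 tags per library, so that a global loss or gain of the mark cannot be seen. The deposited score of each region served for ranking in 1 alternative, the clonal fold change, a ratio deposited by the authors, for 1 filter, and the region size deposited with each row for the length limit. Tags are PCR reads without molecular identifiers.

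From these lists, distances to 21523 protein-coding genes of the RefSeq annotation of GRCm38.p6, overlaps of at least 1 bp, densities and stretches were computed with scipy 1.17.1, pandas 2.3.3 and numpy 2.4.6 under Python 3.11.15, with coordinates as deposited. Annotation rows that carry scaffold positions under a chromosome name were left out. Intervals are 95%: exact Clopper-Pearson for shares, conditional binomial for ratios of counts, Poisson for densities and log-normal for ratios of ratios. Of 366 genes in 12 lists, 362 were in the annotation. Some genes of these lists, and the list totals that rest on them, are not reported here. The regions and lists were chosen with earlier results of these data known. Genes were named by rule: the 10 with most regions, the 5 with the largest excess in each library, and up to 3 per list with most regions, besides the strongest, farthest and most clustered regions and non-coding genes. Other genes of the lists and genes with regions in 1 library alone are given as examples chosen after their values were seen. On simulated data, 2000 of 2000 distances and 2000 of 2000 overlaps equalled those of a direct search. In a copy of the wild-type list emptied at 200 genes, all 200 but 0 of 1408 untouched genes were called. Emptied genes had at least 5 regions against 0 and untouched ones had equal counts, so the rule fixed this outcome. It checks the code and says nothing of the rate of false calls. Alternatives covered the distance, length, threshold, overlap, gene set, chromosomes and chaining gap.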

Additional observations from a re-analysis of the deposited data

How the results depend on the processing

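The knockout to wild-type ratio of 64.7% stayed within its own interval with 25 kb or 100 kb as the distance limit, with regions under 2000 bp, with the higher-scoring 50%, without the 5% of highest clonal fold change, with distance from any annotated gene and on autosomes alone. It was 68.0% for regions of exactly 500 bp and 91.1% at the common threshold. Shared regions were 19.1% of wild type and 32.1% of knockout. They became 12.5% and 23.6% for regions of exactly 500 bp, 23.2% and 36.5% under 2000 bp, 26.1% and 35.5% at the common threshold and 24.2% and 40.5% for the higher-scoring 50%. They were 17.4% and 28.3% at 50 kb from any annotated gene, 15.8% and 26.8% with 50% of the region covered, 25.7% and 41.7% with the other library within 1 kb and 15.6% and 24.2% against short far regions only. Stretches of 3 or more numbered 289 and 142 with a gap of 5 kb. Genes higher in wild type were 42 at the common threshold, 39 of them among the original 112, and 54 after scaling by the totals. Genes higher in the knockout were 16 and 40. At the common threshold the densities in wild type and knockout were 3.66 and 3.33 per Mb far from genes, 10.1 and 10.4 near them and 15.8 and 16.4 inside them. Of 40 named genes, 34 kept their direction at the common threshold and 32 after scaling, which can turn only a wild-type excess. The cause was not tested. No paired analysis was possible because each genotype has 1 library, and for the same reason no replicate could be left out. Most regions lie near the calling threshold, so a region in 1 list alone may have just missed it in the other, and the tags of such places were not analysed here.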

Other observations

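Among wild-type-rich loci outside the lists, all chosen after their values were seen, were Prok2, which encodes a secreted neuropeptide, with 20 wild-type and 3 knockout short far regions, and Stt3b, an oligosaccharyltransferase subunit, with 25 and 11. Hs6st1, a heparan sulfate enzyme, had 31 and 15, and Cd83, an activation marker of lymphocytes and dendritic cells, 29 and 10. Near-equal counts stood beside Trib2, a pseudokinase, with 25 and 20, Cog6, a Golgi protein, with 21 and 21, and Rplp1, a ribosomal protein, with 24 and 21. The Cog6 regions share a desert with those of Foxo1, which held 46 and 39 in all. The 106 olfactory and vomeronasal receptor genes with far sequence had 20 and 19 regions at 12 genes.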
